A study of Mus musculus with 6 samples.

Results

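The T cell receptor complex and its proximal signalling genes were followed in Tregs, the regulatory T cells that restrain immune responses. 9 genes were chosen by name: Cd3d, Cd3e, Cd3g, Cd247, Cd4, Lck, Zap70, Lat and Lcp2. A probe set was taken for a gene where the platform annotation gave it exactly 1 symbol. This found 90 of 269751 probe sets, and 8 of the 9 genes had probe sets and were tested among 13891 genes. Lck was not analysed here. Tregs, gated as CD4+CD25high, came from the spleen of 6 male mice, 45 weeks old, left without treatment and housed free of specific pathogens. The 3 wild-type mice (WT) were DJ-1+/+, and the 3 knockout mice (KO) were their DJ-1-/- littermates. DJ-1 is the protein that Park7 encodes. Each mouse gave 1 array of the Affymetrix Mouse Gene 2.0 ST type, and the sources used here do not name the deleted part of Park7.

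The receptor on a T cell joins an antigen-binding heterodimer to the CD3 gamma, delta and epsilon chains and to the zeta chain, which carry the signal inwards through tyrosine motifs called ITAMs. The kinase LCK, held near the complex by the CD4 coreceptor, phosphorylates the ITAMs, ZAP-70 binds there, and ZAP-70 in turn phosphorylates the adaptors LAT and SLP-76. In Tregs this pathway is needed for suppressive function, and Tregs are selected in the thymus through it.

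All values are log2(intensity + 16), and a gene's value is the median of its probe sets on each array. A gene counts as changed where limma's adjusted p was under 0.05. KO replicate 1 stood apart from the other arrays. Its mean correlation with them was 0.951, against 0.957 to 0.964 for the others, and its median deviation from the others over the tested genes was -0.11 on the log2 scale, against -0.015 to 0.068. It was the lowest of the 6 arrays for 4 of the 8 members and the highest for the other 4, so the main counts and the members' differences are also given without it. Park7 itself fell from 9.48 ± 0.21 to 5.91 ± 0.18 (SD, n = 3; limma adjusted p = 2.06e-05). The Treg markers Foxp3, Il2ra, Ctla4, Ikzf2 and Tnfrsf18 averaged 11.92 to 11.96 in WT and 11.88 to 11.91 in KO. Of the B cell markers, Ms4a1, Pax5 and Blk lay under the filter floor of 5.90 and Cd79b above it at 9.24 to 9.86, and the 5 markers named on the array averaged 6.44 to 6.95 in WT and 6.56 to 6.82 in KO. The 7 macrophage and monocyte markers averaged 6.30 to 6.84 in WT and 6.10 to 6.36 in KO, all 7 with lower KO means. With no filter, 55.7% of all genes had lower KO means. Lyz2 and Itgam, of these 7, also lay under the filter floor. The 3 NK cell markers averaged 6.69 to 7.06 in WT and 6.54 to 6.71 in KO. They differed in direction: Ncr1 by -0.85 and Klrb1c by 0.28, both without overlap, and Eomes by 0.03. The CD8 T cell markers Cd8a and Cd8b1 averaged 7.47 to 7.59 in WT and 7.36 to 7.39 in KO, with differences of 0.03 and -0.30. Sox13, the only listed gamma delta T cell marker named on the array, was at 6.85 to 7.07 in WT and 6.64 to 6.88 in KO. The part of these other cells in the results below was not tested.

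The first comparison asked whether the chains of the receptor complex differed between KO and WT Tregs. No member passed the threshold, while 0.274% of all tested genes did (38 of 13891). At an unadjusted p of 0.05, 2 of the 8 members differed, Cd3d downward and Cd247 upward, against 10.7% of all tested genes (7.67% lower and 2.99% higher in KO). It was 0 of 8 without KO replicate 1, where 1565 of the 13891 tested genes differed at that level. Cd3d, Cd3e and Cd3g had lower KO means and Cd247 a higher one. In all, 4 of the 8 members had differences below 0, where 59.7% of all tested genes did. It was 7 of 8 without KO replicate 1, against 51.7%, with Cd247 above 0. The median over the members was -0.043 and that over all tested genes -0.052. Without KO replicate 1 these medians were -0.034 and -0.0082. In sorted bulk samples, fewer cells of a type and less RNA per cell cannot be told apart.

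Cd3d encodes the delta chain of CD3, which pairs with epsilon. Its log2 values were 11.14, 11.01 and 11.02 in WT and 10.45, 10.94 and 10.54 in KO, given here and below in the order of the replicate numbers. The groups did not overlap, and KO replicate 2 lay close under the lowest WT array. The difference was -0.41 (SE 0.16, 95% interval -0.77 to -0.05), a change in intensity of -24.9%, with an unadjusted p of 0.0283 in limma and a limma adjusted p of 0.398. Without KO replicate 1 it was -0.32 (limma adjusted p = 0.490). Here and below the interval belongs to a single gene and is not widened for the number of genes tested.

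Cd3e encodes the epsilon chain, which the complex needs to reach the cell surface. Its values were 12.87, 12.90 and 12.86 in WT and 12.56, 12.78 and 12.71 in KO, so every KO array lay below every WT array. The WT arrays spanned a narrow range (SD 0.018) and the KO arrays a wider one (SD 0.11). The difference was -0.19 (SE 0.13, interval -0.49 to 0.10, limma adjusted p = 0.641), and it was -0.13 without KO replicate 1. That SE rests on a variance that limma draws towards those of all tested genes. In the unmoderated test, which uses the gene's own variance alone, the SE was 0.065 (adjusted p = 0.498).

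Cd3g encodes the gamma chain, the other partner of epsilon. Its values were 12.84, 12.95 and 12.89 in WT and 12.58, 12.88 and 12.68 in KO. KO replicates 1 and 3 lay below all WT arrays, and KO replicate 2 lay among them. The difference was -0.18 (SE 0.14, interval -0.50 to 0.13, limma adjusted p = 0.676), and without KO replicate 1 it was -0.12.

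Cd247 encodes the zeta chain, which carries several ITAMs. Its values were 10.13, 9.94 and 9.68 in WT and 10.59, 10.22 and 10.17 in KO. The groups did not overlap in these gene values, in the direction opposite to Cd3d and Cd3e, with WT replicate 1 and KO replicate 3 close together. In 0 of its 11 single probe sets did the KO arrays lie wholly above WT. The median fell on different probe sets in the groups: 17219015 or 17219024 on WT arrays, and 17219035 or 17219023 on KO arrays. In each of these probe sets the groups overlapped, so the separation of the gene values is seen in none of them alone. The difference was 0.41 (SE 0.17, interval 0.02 to 0.80), a change in intensity of 32.8%, with an unadjusted p of 0.0411 in limma and a limma adjusted p of 0.444. It was 0.20 when probe sets were averaged instead of taking their median, and 0.28 without KO replicate 1.

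Over the 8 members, the KO arrays lay wholly below the WT arrays for 2 genes (Cd3d and Cd3e), where 11.3% of all tested genes did so. They lay wholly above for 1 gene (Cd247), where 6.10% did. The counts were again 2 and 1 without KO replicate 1, against 15.3% and 13.7% of all tested genes.

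**Figure D1:**
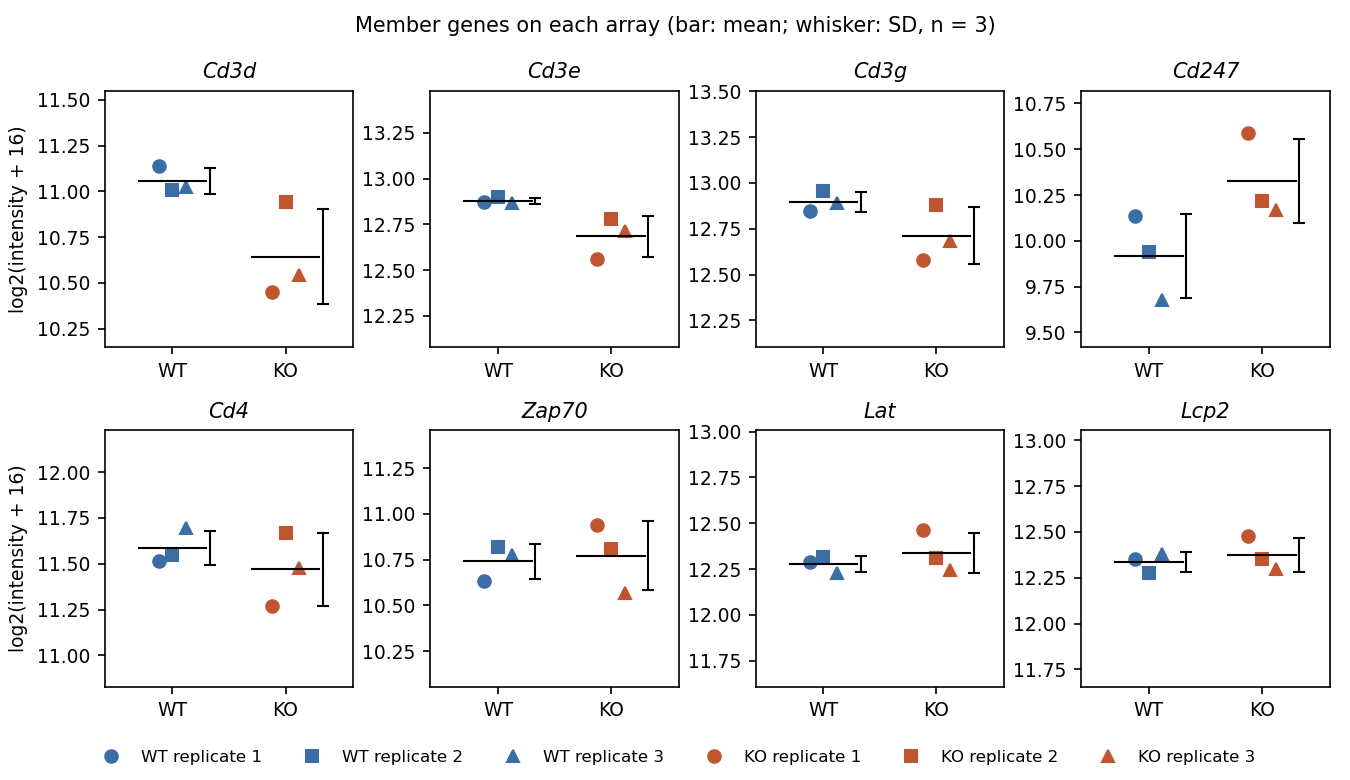
Value of each member gene on each array, as log2(intensity + 16), in WT (blue) and KO (orange); marker shape gives the replicate, bars the group mean and whiskers the SD (n = 3), and every panel spans the same range. Cd3d and Cd3e lie lower and Cd247 higher on all 3 KO arrays, and in the other 5 genes the groups overlap.

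The single probe sets show how evenly these differences ran along each gene. All 21 probe sets of Cd3d, Cd3e and Cd3g had lower KO means, where 53.0% of all probe sets did. Shares of all probe sets, here and below, count dim and unnamed ones too and are not matched for brightness. Of genes, 55.7% were lower in KO with no filter and 63.9% with the filter at the 60th percentile. Every probe set of a gene was lower in 3.15% of the 9151 tested genes with at least 7 probe sets, and each of these 3 genes was among them. Each of the 3 has 7 probe sets, the fewest allowed there, and all being lower is easier with few. The 3.15% is not matched for that number. Probe sets of a gene read the same RNA and are not replicates. The count was 21 without KO replicate 1, where 49.0% of all probe sets were lower, and 20 without WT replicate 2, WT replicate 3 or KO replicate 3. In 12 of the 21, 5 of Cd3d, 6 of Cd3e and 1 of Cd3g, the KO arrays lay wholly below the WT arrays, against 7.64% of all probe sets. Without KO replicate 1 it was 13 of the 21, against 12.3%.

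In Cd3d the differences ran from -0.56 to -0.09. Probe set 17516692 was at 8.26, 8.20 and 7.83 in WT and 7.36, 7.63 and 7.63 in KO (-0.56, limma adjusted p = 0.593). Probe set 17516697 was at 11.81, 11.64 and 11.66 in WT and 11.09, 11.47 and 11.22 in KO (-0.44). Neither had overlapping groups. Probe set 17516698 differed least (-0.09), with WT values of 8.78, 9.42 and 9.53 around KO values of 9.09, 9.47 and 8.91, and it turned slightly higher in KO without WT replicate 2, WT replicate 3 or KO replicate 3 (at most 0.056).

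In Cd3e the 7 probe sets lay close together, between -0.24 and -0.12. Probe set 17526467 was at 12.61, 12.60 and 12.59 in WT and 12.38, 12.40 and 12.30 in KO, a gap that all 3 KO arrays shared (-0.24). Probe sets 17526466 (-0.24) and 17526468 (-0.12) marked the ends of the range, also without overlap. In Cd3g the range was -0.32 (17526459, or -0.19 without KO replicate 1) to -0.06 (17526463), and only 17526457 (-0.26) had groups that did not overlap, with 11.95, 11.93 and 11.70 in WT and 11.61, 11.63 and 11.56 in KO.

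In Cd247 the 11 probe sets differed in sign: 8 had higher and 3 lower KO means. Their median difference was 0.24, below the 0.41 of the gene value. The KO arrays lay wholly above WT in 0 of the 11, against 6.17% of all probe sets, and wholly below in 1, against 7.64%. Without KO replicate 1 these counts were 1 and 1, against 12.6% and 12.3%. The highest difference was that of probe set 17219021, at 6.79, 6.99 and 7.53 in WT and 7.48, 7.69 and 7.67 in KO (0.51, limma adjusted p = 0.677). Probe set 17219035 differed by 0.40, or 0.21 without KO replicate 1, with KO replicate 2 (9.77) inside the WT range of 9.61 to 9.95. Probe set 17219020 went the other way, from 11.89, 11.87 and 11.88 in WT to 11.67, 11.65 and 11.83 in KO (-0.16), with no overlap. The others with lower KO means, 17219018 and 17219022, differed by -0.01 and -0.02 and were singled out after their values were seen. The 3 with lower KO means were the brightest of the 11, with WT means of 12.21 (17219018), 12.02 (17219022) and 11.88 (17219020). A further 8 probe sets that the annotation shares between Cd247 and Pou2f1 were not used.

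**Figure D2:**
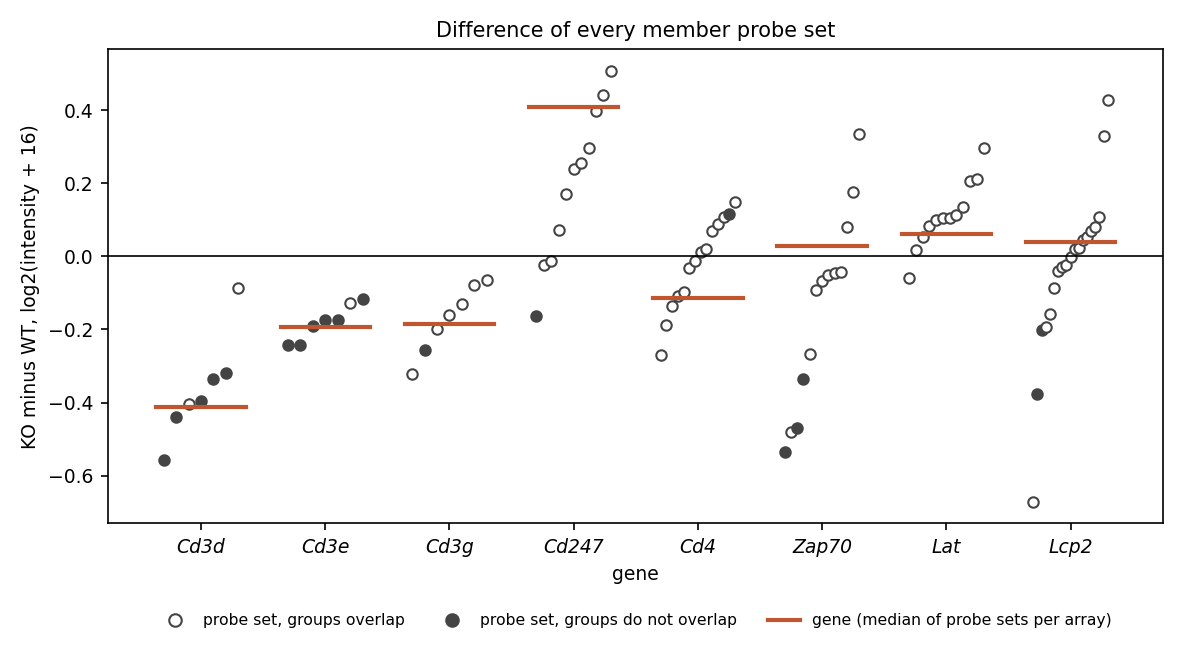
KO minus WT difference of each of the 90 member probe sets, in log2(intensity + 16), sorted within each gene; filled points have groups that do not overlap, and the orange line is the gene's own difference. All 21 points of Cd3d, Cd3e and Cd3g lie below 0, whereas those of Cd247, Cd4, Zap70 and Lcp2 lie on both sides.

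Because Cd3d, Cd3e and Cd3g lay lower and Cd247 higher, the members were also set against the mean of the 3 CD3 genes on the same array, which removes any shift common to an array. This quantity was chosen after the values were seen and has no test. Relative to the WT mean, Cd247 minus the CD3 mean was 0.21, 0.01 and -0.22 in WT and 1.09, 0.38 and 0.55 in KO. The groups did not overlap, and KO replicate 1 was highest. The difference was 0.67, or 0.47 without KO replicate 1, against WT and KO SDs of 0.22 and 0.37. Under 4 other settings it ran from 0.44, with the mean of the probe sets, to 0.69. Against the same CD3 mean, KO minus WT was 0.15 for Cd4, 0.29 for Zap70, 0.32 for Lat and 0.30 for Lcp2, and 0.17, 0.13, 0.19 and 0.18 without KO replicate 1. These values share the CD3 mean, so they are not separate observations of it.

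**Figure D3:**
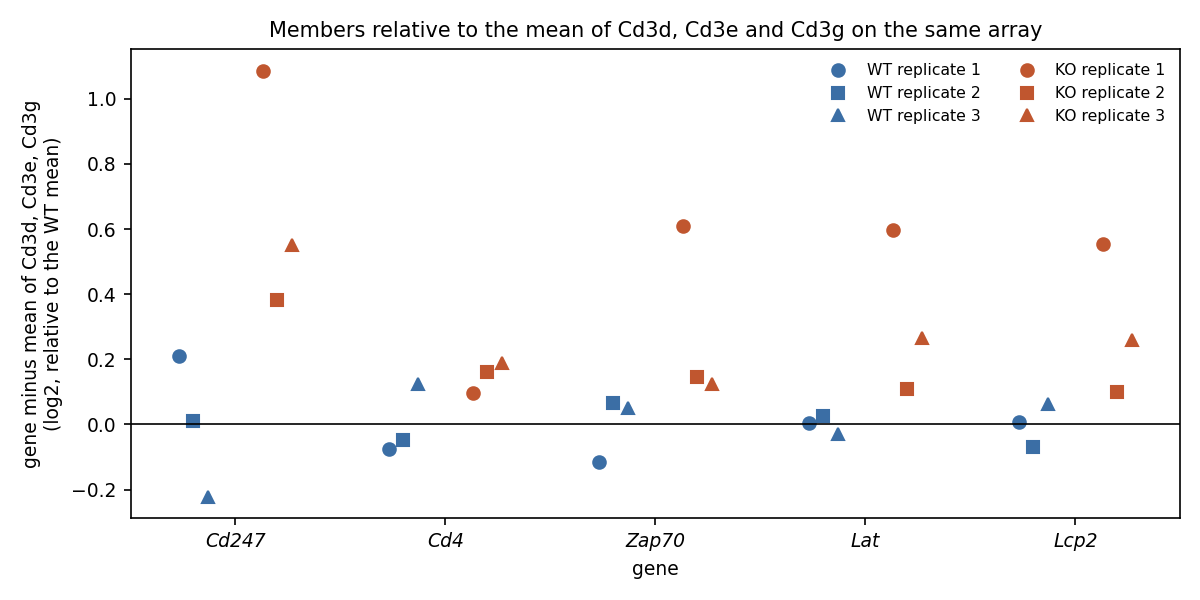
Each member minus the mean of Cd3d, Cd3e and Cd3g on the same array, in log2 units relative to the WT mean; colours give the group and shapes the replicate. For Cd247 the KO arrays sit at 0.38 to 1.09 and the WT arrays at -0.22 to 0.21.

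The promoters of the 4 genes of the CD3 and zeta chains are shown because Cd3d, Cd3e and Cd3g lay lower and Cd247 higher in KO. RefSeq (GRCm38.p6) held promoters for 8 of the 9 genes by symbol. Each sequence is the 250 bases before the start, 5′ to 3′ on the gene's own strand. Cd3g and Cd3d are neighbours on opposite strands of chromosome 9 with starts 1355 bases apart, at chr9:44980432-44980681 (minus) and chr9:44981536-44981785 (plus). The Cd3e window is chr9:45009612-45009861 (minus) and that of Cd247 chr1:165788431-165788680 (plus). Capitals mark matches on either strand to short motifs that factors of T cells are known to bind or, for the last, that marks a core promoter: the E-box CAGGTG, the Runx motif TGTGGT, the GATA motif AGATAA, the Ets motif CAGGAAG and the TATA motif TATAAA. None of these matches overlapped another.
Cd3d: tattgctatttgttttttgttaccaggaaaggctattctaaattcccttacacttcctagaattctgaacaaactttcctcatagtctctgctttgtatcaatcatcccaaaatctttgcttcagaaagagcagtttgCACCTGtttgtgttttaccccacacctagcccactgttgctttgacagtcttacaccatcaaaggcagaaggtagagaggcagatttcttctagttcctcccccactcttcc
Cd3g: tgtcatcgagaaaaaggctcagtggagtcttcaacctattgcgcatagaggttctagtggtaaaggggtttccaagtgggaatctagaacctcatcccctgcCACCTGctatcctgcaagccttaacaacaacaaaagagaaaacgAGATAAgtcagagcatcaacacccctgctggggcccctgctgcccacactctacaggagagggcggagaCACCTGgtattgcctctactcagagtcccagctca
Cd3e: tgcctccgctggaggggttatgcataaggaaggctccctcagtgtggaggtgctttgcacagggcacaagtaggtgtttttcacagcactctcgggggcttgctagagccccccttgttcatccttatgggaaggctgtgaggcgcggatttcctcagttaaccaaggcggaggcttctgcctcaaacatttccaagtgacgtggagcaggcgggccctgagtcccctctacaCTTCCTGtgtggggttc
Cd247: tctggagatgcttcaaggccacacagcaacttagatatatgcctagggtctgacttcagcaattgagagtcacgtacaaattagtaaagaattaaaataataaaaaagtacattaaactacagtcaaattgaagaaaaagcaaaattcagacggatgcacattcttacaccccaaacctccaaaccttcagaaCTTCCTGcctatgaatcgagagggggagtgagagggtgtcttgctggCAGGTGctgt

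The E-box letters occurred in Cd3d (1 match), Cd3g (2) and Cd247 (1), and in 17.2% of 32851 RefSeq promoters of the same length. The GATA letters occurred in Cd3g (9.99% of promoters) and the Ets letters in Cd3e and Cd247 (10.8%). The Runx (14%) and TATA (12.4%) letters had no match in these 4 windows. A match is a description of the letters and no evidence of binding. The E-box letters were shared by genes that lay lower (Cd3d, Cd3g) and higher (Cd247) in KO.

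The second comparison took the coreceptor. Cd4 encodes CD4, which binds MHC class II and carries LCK. CD4 protein was part of the gate that chose the cells. The values were 11.52, 11.55 and 11.69 in WT and 11.27, 11.67 and 11.48 in KO, and the groups overlapped. The difference was -0.12 (SE 0.15, interval -0.45 to 0.22, limma adjusted p = 0.814), and it was -0.01 without KO replicate 1 and -0.02 when probe sets were averaged. Of its 14 probe sets, 7 had lower and 7 higher KO means, from -0.27 (17470970) to 0.15 (17470973). Without KO replicate 1 it was 9 lower of 14, with -0.11 for 17470970 and -0.01 for 17470973. Probe set 17470969, the second by p, differed by -0.19, or -0.07 without KO replicate 1, with KO values of 11.38, 11.83 and 11.64 around WT values of 11.82, 11.79 and 11.81. Only 17470972, singled out after its value was seen, had KO arrays wholly above WT (0.12), where 6.17% of all probe sets did.

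The third comparison took the kinase that reads the phosphorylated ITAMs. Zap70 had gene values of 10.63, 10.82 and 10.78 in WT and 10.94, 10.81 and 10.57 in KO, with the KO arrays spread around the WT arrays. The difference was 0.03 (SE 0.15, interval -0.30 to 0.36, limma adjusted p = 0.958). Its probe sets did not share that sign: 10 of 13 had lower KO means, their median difference was -0.07, and averaging them gave -0.14 for the gene (limma adjusted p = 0.620). Array weights gave -0.06, leaving out KO replicate 1 gave -0.05 and leaving out WT replicate 1 gave -0.03, so Zap70 has no settled direction.

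In 3 of the 13 probe sets of Zap70 the KO arrays lay wholly below the WT arrays, where 7.64% of all probe sets did, and in 5 of 13 without KO replicate 1, where 12.3% did. Probe set 17211870 was at 10.61, 10.59 and 10.42 in WT and 10.11, 10.02 and 9.88 in KO. This difference of -0.54 (SE 0.14) had the smallest p among the 90 member probe sets, 0.00821 unadjusted in limma, and a limma adjusted p of 0.540. Probe set 17211881 was at 10.50, 10.52 and 10.43 in WT and 9.91, 10.17 and 9.97 in KO (-0.47, limma adjusted p = 0.571). The third, 17211871, differed by -0.34. At the other end, 17211880 was at 10.84, 10.92 and 10.79 in WT and 11.46, 10.81 and 11.29 in KO (0.33, or 0.20 without KO replicate 1), with KO replicate 2 inside the WT range. Within Zap70 the differences of single probe sets had an SD of 0.26, the widest of the 8 members.

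Over all 90 member probe sets, 0 passed in limma (3 of 269751 did, or 0.00111%). At an unadjusted p of 0.05 it was 5, 2 of Cd3d and 3 of Zap70, where 7.59% of all probe sets differed. The KO arrays lay wholly below WT in 18 of the 90, against 7.64% of all probe sets, and wholly above in 1, against 6.17%. They were 22 and 3 without KO replicate 1, against 12.3% and 12.6%.

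The fourth comparison took the adaptors. Lat encodes the membrane scaffold onto which phospholipase C gamma and GRB2 are drawn. Its values were 12.29, 12.31 and 12.23 in WT and 12.46, 12.31 and 12.24 in KO, so that KO replicate 1 alone lay above the WT range. The difference was 0.06 (SE 0.13, interval -0.24 to 0.36, limma adjusted p = 0.901), and it was -0.0019 without KO replicate 1. Of its 12 probe sets 11 had higher KO means, but 7 of 12 without KO replicate 1. They ran from -0.06 (17496151) to 0.30 (17496159), and 17496162 differed by 0.21. Without KO replicate 1 these were -0.0038, 0.07 and 0.13, and 17496159 differed by 0.12 without WT replicate 3. All 12 had overlapping groups.

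Lcp2 encodes SLP-76, a cytosolic adaptor that is drawn to LAT and binds VAV1. Its values were 12.35, 12.28 and 12.38 in WT and 12.48, 12.35 and 12.30 in KO. The groups overlapped, and the difference was 0.04 (SE 0.13, interval -0.25 to 0.33, limma adjusted p = 0.938), with -0.0098 without KO replicate 1 and -0.03 when probe sets were averaged. Of its 19 probe sets 10 had lower and 9 higher KO means. The extremes lay near the low end of the scale: 17248398 differed by -0.67 with KO replicate 2 at 4.98 and the other KO arrays at 6.65 and 7.38, and 17248393 by 0.43, or 0.13 without WT replicate 3. In 2 of the 19, 17248384 and 17248385, the KO arrays lay wholly below WT, against 7.64% of all probe sets, and in 3 of 19 without KO replicate 1, against 12.3%. The former was at 13.09, 13.10 and 13.11 in WT and 12.75, 13.02 and 12.92 in KO (-0.20, or -0.13 without KO replicate 1). The latter differed by -0.38, or -0.21 without WT replicate 1.

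The limma intervals give a range of sizes under the main settings, and their width rests on the moderated variances. Unmoderated SEs were 0.069 for Lat and 0.061 for Lcp2, against 0.13 in limma for both. The choice of summary is not covered, and the mean of the probe sets gave -0.14 for Zap70. The intervals of Zap70, Lat and Lcp2 reached from -0.30 to 0.36 at most, a change in intensity between -18.9% and 28.3%. That of Cd3d reached to -0.77, or -41.4%, and that of Cd247 to 0.80, or 73.8%. A p that misses the threshold does not show that these genes were equal.

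The fifth comparison set these members beside 76 other genes of T cell receptor signalling, of which 65 were tested. In limma 0 passed, and at an unadjusted p of 0.05 it was 8, against 10.7% of all tested genes. Of these, 2 were lower in KO, against 7.67% of all tested genes, and 6 higher, against 2.99%. Of the 65, 27 had lower KO means, where 59.7% of all tested genes did, and 38 higher ones. The list's median was 0.06 and that over all tested genes -0.052, or 0.06 and -0.0082 without KO replicate 1. The KO arrays lay wholly below WT in 5 of the 65, against 11.3%, and wholly above in 9, against 6.10%. Without KO replicate 1, 25 of the 65 were lower, against 51.7%, 9 lay wholly below, against 15.3%, and 18 wholly above, against 13.7%. By role, 4 of 6 coreceptor and costimulation genes were lower (median -0.14), as were 3 of 8 kinases and phosphatases (0.02), 7 of 19 adaptors (0.11), 8 of 19 effectors (0.07) and 5 of 13 brakes on the pathway (0.09). Each gene had a single role, so Dok1 and Sla count as adaptors and Pag1 with the kinases and phosphatases. The 13 brakes are therefore not all the genes that restrain the pathway.

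Among those with higher KO means, the smallest p belonged to Txk, a TEC-family kinase of T cells. It was at 9.18, 8.95 and 9.40 in WT and 9.68, 9.59 and 10.03 in KO (0.59, SE 0.17, limma adjusted p = 0.275), without overlap. Prkcq, protein kinase C theta, which links the receptor to NF-kB, was at 11.07, 11.16 and 11.03 in WT and at 11.44, 11.45 and 11.46 in KO (0.36, limma adjusted p = 0.346). Its KO arrays lay close together, all above the WT arrays. Grap2 encodes GADS, the bridge between LAT and SLP-76, and was at 10.93, 10.95 and 11.05 in WT and 11.38, 11.22 and 11.46 in KO (0.38, or 0.23 with the mean of the probe sets; limma adjusted p = 0.357). The phosphatase Ptpn6, SHP-1, differed by 0.33 (0.16 with the mean of the probe sets) and Pag1, the membrane adaptor that holds the inhibitory kinase CSK, by 0.40; the groups of both did not overlap. Lat and Lcp2, whose products GADS joins, differed by 0.06 and 0.04; the differences between these genes' values were not tested.

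Among those with lower KO means, Dok1, an adaptor that restrains RAS signalling, had the smallest p. It was at 8.53, 8.44 and 8.65 in WT and 7.87, 7.98 and 8.19 in KO (-0.53, SE 0.14, limma adjusted p = 0.237). Malt1, a protease that acts in NF-kB signalling, had the largest difference of the 65 and was at 10.50, 10.48 and 10.01 in WT and 8.75, 9.84 and 9.86 in KO. This difference of -0.84 (limma adjusted p = 0.329) was -0.48 without KO replicate 1. Sla, an adaptor that lowers receptor levels, differed by -0.28 (-0.14 with the mean of the probe sets), Cd8b1, the beta chain of CD8, by -0.30 (-0.19 without KO replicate 3) and the phosphatase Ptpn22 by -0.29.

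The other genes of the list named here were given whatever their value. Cd28, the main costimulator, differed by -0.16 (SE 0.30, interval -0.84 to 0.52) and by 0.22 without KO replicate 1, whose value of 8.55 lay below the 9.12 to 9.71 of the other arrays. The SRC-family kinase Fyn differed by -0.11, the phosphatase Ptprc, CD45, by -0.02, Nfatc1 by 0.10 and Nr4a1, an immediate target of receptor signalling, by -0.05. Plcg1, the phospholipase that LAT recruits, differed by -0.0012 (SE 0.14). The direction of Ptprc, Plcg1, Nfatc1, Nr4a1 and Fyn changed under at least 1 alternative.

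**Figure D4:**
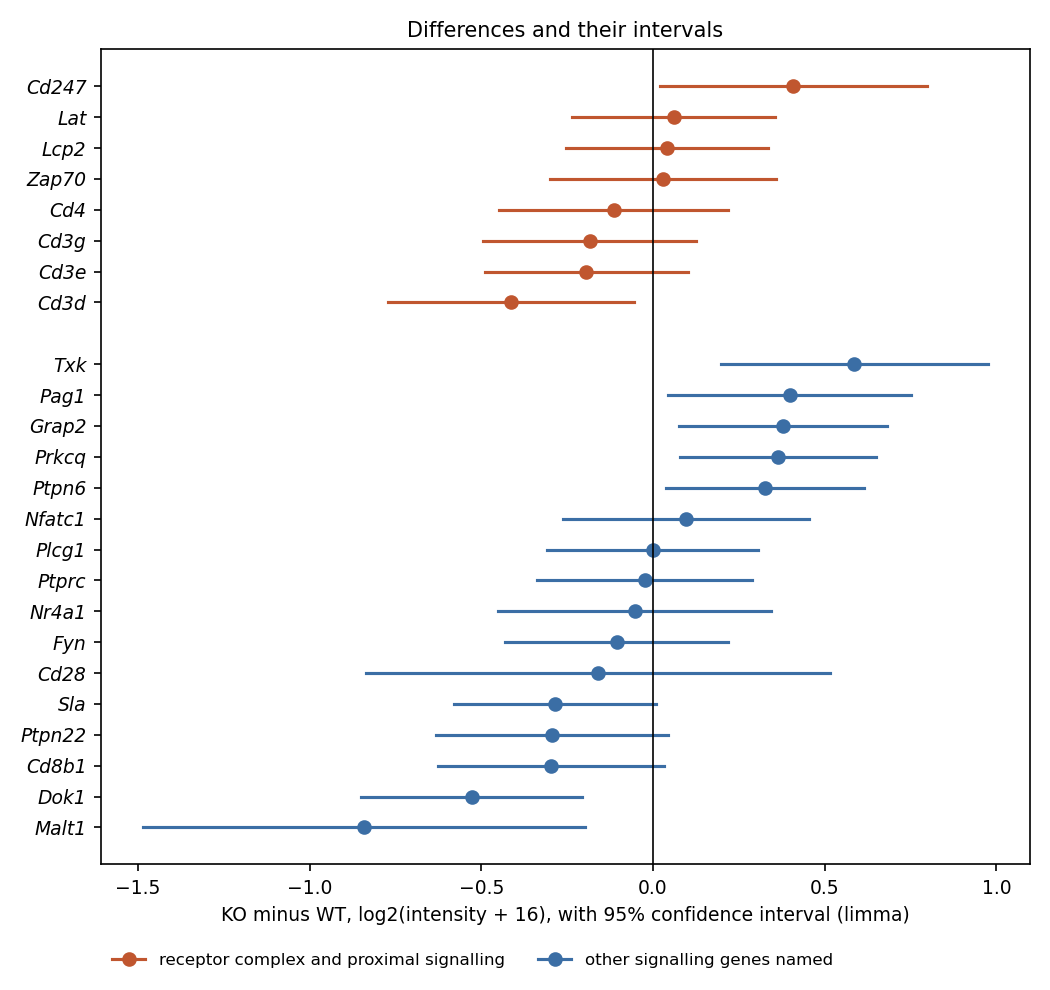
KO minus WT difference with its 95% confidence interval (limma, single genes, log2(intensity + 16) scale) for the 8 members (orange) and 16 other signalling genes (blue), sorted within each set. Among the members the intervals of Cd3d and Cd247 alone leave out 0, and 0 of these genes passed after adjustment over all tested genes.

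Among genes outside the members, Slc38a8, an amino acid transporter gene, Suv420h2, a histone methyltransferase gene now named Kmt5c, and Zfp36, which encodes an RNA-binding protein, lay nearest to the mean centred profile of the 8 members over the 6 arrays. Their root mean square distances were 0.018, 0.027 and 0.028 log2 units. That profile ran only from -0.10 in KO replicate 3 to 0.056 in KO replicate 2, since members of opposite direction cancel in it.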

How the data were processed

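Each of 6 mice gave 1 array; sample titles supplied the groups and numbers. The authors deposited linear intensities per exon-level probe set, summarised with PLIER in Affymetrix Expression Console 1.4, per the labels and the submitters' processing notes. Background correction and normalization between arrays are not given in the sources used here. Intensities were taken as log2(intensity + 16), which understates changes of dim probe sets, with no further normalization. Gene values were medians of probe sets with 1 symbol. Genes under the 40th percentile of the mean (5.90) were left out, and 13891 of 23152 were tested with limma 3.58.1 in R 4.3.3 (lmFit, eBayes, two-sided, Benjamini-Hochberg over all genes, or over all 269751 probe sets). The tests were checked on simulated arrays. The number of arrays limits the precision. The p-values rest on the spread between these mice, with each variance drawn by limma towards those of all genes or probe sets tested. The members, lists and tests were chosen with earlier results of these data known. Genes named were all members, Park7, the 5 other signalling genes with the smallest p in each direction, fixed ones (Cd28, Fyn, Ptprc, Plcg1, Nfatc1 and Nr4a1; another is not reported here) and the 3 nearest in profile; probe sets named were, per member, the 2 with the smallest p and the extremes. Alternatives were other pseudocounts, filters, summaries, normalizations and variance models, array weights, the replicate number as a block and leaving out each array.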

Additional observations from a re-analysis of the deposited data

How the results depend on the processing

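Under 12 other settings and 6 fits without 1 array, no member gene or gene of the wider signalling list passed, nor did a member probe set under the 7 other settings and 6 fits run on probe sets; Cd3d, Cd3e, Cd3g and Cd4 stayed below 0 and Cd247 above 0. Leaving out each array in turn gave -0.56 to -0.32 for Cd3d, -0.24 to -0.13 for Cd3e, -0.27 to -0.12 for Cd3g, 0.28 to 0.52 for Cd247, -0.21 to -0.014 for Cd4, -0.054 to 0.13 for Zap70, -0.0019 to 0.11 for Lat, -0.0098 to 0.080 for Lcp2 and -0.10 to -0.013 for the members' median, and 0.47 to 0.82 for Cd247 minus the CD3 mean. It gave 4 to 37 genes in all past the threshold, against 38. The low totals were 4 (WT replicate 1 or 2 left out), 7 (WT replicate 3) and 11 (KO replicate 3). Other totals were 60 with the mean of the probe sets, 125 with array weights and 0 with the unmoderated test, in which Park7 differed by -3.57 with an adjusted p of 0.0905.

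The sign turned for Zap70 (-0.14) and Lcp2 (-0.033) with the mean of the probe sets, and for Zap70 with array weights (-0.062). Among the other signalling genes, the mean of the probe sets turned Fyn (0.071) and Plcg1 (0.027), bright probe sets (Plcg1, 0.0083) and quantile normalization (Plcg1, 0.014) turned 1 gene each, median centring turned Ptprc (0.010) and Plcg1 (0.034), and array weights turned Cd28 (0.10), Ptprc (0.0085) and Plcg1 (0.011). Leaving out an array gave -0.36 to 0.22 for Cd28, -0.088 to 0.045 for Ptprc, -0.065 to 0.073 for Plcg1, -0.031 to 0.20 for Nfatc1, -0.20 to 0.056 for Nr4a1, -0.32 to 0.056 for probe set 17516698, -0.012 to 0.30 for 17470973 and -1.19 to 0.0055 for 17248398. The causes were not tested.

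The replicate numbers share no stated origin, and same-numbered arrays correlated at 0.15, 0.17 and 0.010 in their deviations from the group means, with 4 of 6 arrays closest to their own number. With the replicate block 67 genes passed in place of 38, 0 of them members, and the smallest adjusted p of a member was 0.283 (limma). Of the 38 genes called, 97.4% were lower in KO; this was 87.3% with quantile normalization.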
